A study of Mus musculus with 6 samples.

Results

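The nuclear genes of oxidative phosphorylation were taken from the gene table as every symbol that begins with Nduf followed by a, b, c, s or v, with Uqcr, with Cox and a digit from 4 to 8, or with Atp5, together with Sdha, Sdhb, Sdhc and Sdhd. The pattern found 90 of 23235 genes. Of these, 89 carried a test by the authors, and 88 of the 89 reached 1 FPKM in at least 1 genotype. FPKM is a transcript level scaled to transcript length and sequencing depth. By name 42 of the 90 belong to complex I, 4 to complex II, 8 to complex III, 19 to complex IV and 17 to complex V. Not all encode subunits: 82 encode a subunit or an isoform of one, and 8 encode assembly factors or other proteins that carry a similar symbol.

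Oxidative phosphorylation is the last stage of respiration in mitochondria. Complexes I and II pass electrons from NADH and succinate to ubiquinone, complex III passes them to cytochrome c, complex IV passes them to oxygen, and complex V, the ATP synthase, makes ATP from the proton gradient that complexes I, III and IV build. A few subunits are encoded by mitochondrial DNA and were not analysed here, and all the others come from nuclear genes spread over the chromosomes. Neurons depend on this pathway for most of the ATP that ion pumping and synaptic transmission consume.

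The samples were hippocampi of 6 male mice aged 60 to 70 days, 3 per genotype. Wildtype mice were Rbfox1 fl/fl; +/+, with both Rbfox1 alleles flanked by loxP sites and no Cre recombinase. Nes-cKO mice were Rbfox1 fl/fl; Nes/+, with the same alleles and a Cre driven by Nestin, a promoter active in neural progenitors, so that neurons, astrocytes and oligodendrocytes descend from cells that had the Cre. Since Cre was present in Nes-cKO only, an effect of Cre itself and an effect of losing Rbfox1, a regulator of splicing and messenger RNA level, cannot be told apart. The gene table gives 1 FPKM per gene and genotype, which leaves the variation between mice unmeasured, gives the values below no replicate error, and leaves the reads per library unknown.

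As a check of the labels, Rbfox1 had 67.5 FPKM in wildtype against 23.0 FPKM in Nes-cKO (q = 0.00152, authors' deposited table). Where a pair of values follows without genotypes, wildtype comes first. The q-value is a p-value adjusted over all tested genes, and a gene was called at q below 0.05. Defining markers of hippocampal neurons were present. Of 7 excitatory markers, Neurod2 (42.1 and 74.1 FPKM), Slc17a7 (373 and 490 FPKM) and Grik4 (13.2 and 18.3 FPKM) were called higher. Prox1, Wfs1, Neurod6 and Camk2a were not called, the last at 786 and 668 FPKM, and the 7 summed to 1366 and 1388 FPKM. Of 5 inhibitory markers, 4 were higher, 1 was lower and 0 were called, with sums of 452 and 446 FPKM. The 6 oligodendrocyte markers, Mbp, Mog and Mag among them, were all called lower in the authors' deposited table. Their summed level was 1551 FPKM in wildtype against 1051 FPKM in Nes-cKO. The 6 microglia markers summed to 164 and 155 FPKM, with 0 called. Of 5 astrocyte markers, Gfap (106 and 214 FPKM) and Aqp4 were called higher, and Slc1a3, Slc1a2 and Aldh1l1 had lower values without being called. The 5 summed to 472 and 568 FPKM, and to 366 and 354 FPKM without Gfap. The part that these markers play in the results below was not tested. In bulk tissue, fewer cells of a type and less RNA per cell cannot be told apart.

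None of the oxidative phosphorylation genes was called different between the genotypes. In the authors' deposited table, 0 of the 88 measured members passed a q of 0.05, where 7.1% of the 12685 tested genes at 1 FPKM or more did. The smallest q among the members was 0.199. At an unadjusted p below 0.05 in the authors' deposited table, 3 members were higher in Nes-cKO and 0 were lower. These 3 were Ndufc2, Atp5d and Cox7a1. Of the 12685 tested genes at 1 FPKM or more, 1170 (9.22%) were higher and 688 lower at that p. The sizes were small: 54 of the 88 had a log2 ratio of Nes-cKO over wildtype within 0.1 of zero, which is 61.4% of them, beside 46.9% of all tested genes at 1 FPKM or more. Another 31 lay above 0.1 and 3 below -0.1. Most members are abundant, and abundant genes had a narrower spread. The quartiles of the log2 ratio were -0.038 and 0.14 for all 2127 tested genes at 30 FPKM or more in wildtype. They were -0.079 and 0.13 for all tested genes at 1 FPKM or more. The share within 0.1 was not computed for genes of like level.

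More of the members had a ratio above 1 than below. The FPKM was higher in Nes-cKO for 69 of the 88 (78.4%) and lower for 19, and the median log2 ratio was 0.072. Over all tested genes at 1 FPKM or more, 57.7% were higher and the median was 0.030. Most members are abundant: among the 74 at 30 FPKM or more in wildtype 85.1% were higher with a median of 0.076, beside 65.7% and 0.053 for all 2127 tested genes at that level. Set relative to the median of all tested genes at 1 FPKM or more, 0.030, 62 of the 88 members were higher and 26 lower. The summed level of the 88 was 12468 FPKM in wildtype against 13172 FPKM in Nes-cKO, a ratio of 1.06. The members come from the same libraries and are not replicates, so these shares describe the libraries and were not tested.

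**Figure D1:**
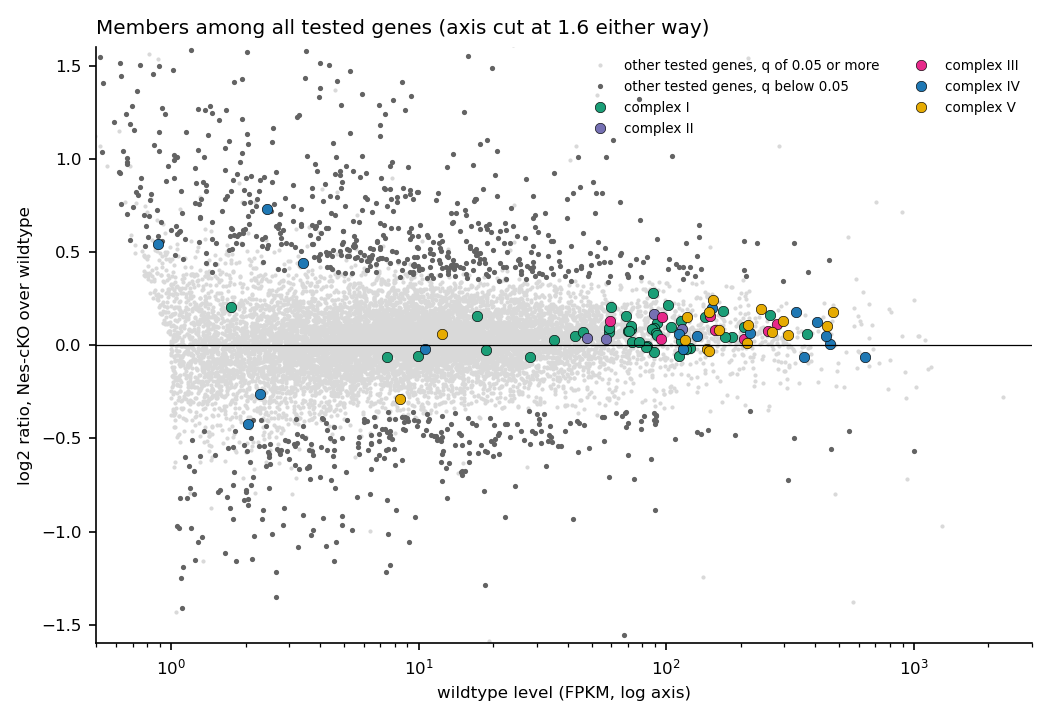
Log2 ratio of FPKM in Nes-cKO over wildtype (vertical axis, cut at 1.6 either way) against the wildtype level in FPKM (horizontal log axis, cut at both ends), with 1 point per tested gene at 1 FPKM or more in either genotype. Coloured points are the measured members by complex and dark grey points are other genes with q below 0.05. The members at 30 FPKM or more lie in a narrow band from -0.065 to 0.28, inside the dark grey points.

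Among genes at the level of most members, the authors' test called some fairly small differences. Among 2127 tested genes at 30 FPKM or more in wildtype, a level chosen after the values were seen, the authors' test called 6.63%. The smallest called rise there was 1.27-fold, a log2 ratio of 0.34, and the smallest called fall was to 78.3% of wildtype. All 74 members at that level had log2 ratios between -0.065 and 0.28, below the smallest called size in either direction. Such small ratios are common: 91.5% of the 2127 genes lay below that size. The smallest called size comes from other genes, and the variation between mice is unmeasured. It therefore does not show what size could have been called in the members. The 14 measured members under 30 FPKM spread more widely, from -0.42 to 0.73.

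The members lie on 19 chromosomes, with 10 of them on chromosome 7 and 3 on chromosome X. Their transcripts are short, with a median of 682 bases in the GENCODE M21 annotation for the 88 measured members, beside 2257 bases for 11106 tested genes matched by symbol. Across the 88 members, Spearman's rho between transcript length and log2 ratio was 0.022, and between wildtype level and log2 ratio it was 0.11, a description over genes of the same libraries. By the authors' loci, 11 members share a place with another gene, such as Atp5j with Gabpa and Ndufb11 with Rbm10. Many of these genes also have processed pseudogenes, so the split of reads between near-identical copies is uncertain.

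Promoter sequence was searched for the letters bound by factors known to act on respiratory genes: GCGCATGC for NRF1 (nuclear respiratory factor 1), CGGAAG for the ETS factor GABP, and AAGATGGC for YY1. The window ran from 250 bases before to 50 bases after the RefSeq start in GRCm38.p6, on both strands, with the first listed start of each gene. Promoters on chromosome 18 were left out, which removed Atp5a1 and Ndufa2 and also thinned the background. Promoters of 74 of the 90 members were matched, 3 of them under a later symbol. The NRF1 letters were found in 11 of the 74 (14.9%), beside 2.80% of 27025 promoters and 5.56% of the promoters of 9017 genes tested at 1 FPKM or more. The GABP letters were found in 28 (37.8%), beside 17.2% and 30.7%. The YY1 letters were found in 10 (13.5%), beside 2.88% and 4.64%. These letters contain ATG, the letters of a start codon, and the window reaches 50 bases into the transcript. Whether the YY1 matches are bound sites or start codons was not tested. No member had matches of different motifs that overlapped, while the NRF1 letters overlap their own reverse strand.

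Members with and without these letters had like ratios. The median log2 ratio was 0.089 for the 11 members with NRF1 letters and 0.070 for 62 without. It was 0.070 for the 28 with GABP letters and 0.077 for 45 without. It was 0.042 for the 10 with YY1 letters and 0.077 for 63 without, all of them sizes far below the smallest called one. The transcripts of the factors themselves were not called: Nrf1 stood at 4.55 and 4.97 FPKM, Gabpa at 4.53 and 4.42 FPKM and Yy1 at 11.8 and 13.1 FPKM.

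The 250 bases before the start are shown for Atp5k and Cox6a1, the most highly expressed matched members with NRF1 letters and with GABP letters there, and for Cox7a1, a muscle isoform with none of the motifs. Capitals mark motif matches on either strand. In Atp5k the NRF1 letters begin 50 bases before the start, and in Cox6a1 they begin 162 bases before it and the GABP letters 16 bases before it.
Atp5k, chr5:108434400-108434649, minus strand: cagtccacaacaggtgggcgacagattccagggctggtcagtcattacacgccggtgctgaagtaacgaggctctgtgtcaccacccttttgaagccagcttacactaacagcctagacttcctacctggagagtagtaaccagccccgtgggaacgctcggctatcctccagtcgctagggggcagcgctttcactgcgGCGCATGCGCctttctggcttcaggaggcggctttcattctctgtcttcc
Cox6a1, chr5:115348959-115349208, minus strand: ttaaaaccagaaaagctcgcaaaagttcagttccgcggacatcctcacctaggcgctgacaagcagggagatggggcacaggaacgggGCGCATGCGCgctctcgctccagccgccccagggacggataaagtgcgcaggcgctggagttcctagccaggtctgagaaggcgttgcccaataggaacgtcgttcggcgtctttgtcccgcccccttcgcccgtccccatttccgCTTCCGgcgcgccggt
Cox7a1, chr7:30183921-30184170, plus strand: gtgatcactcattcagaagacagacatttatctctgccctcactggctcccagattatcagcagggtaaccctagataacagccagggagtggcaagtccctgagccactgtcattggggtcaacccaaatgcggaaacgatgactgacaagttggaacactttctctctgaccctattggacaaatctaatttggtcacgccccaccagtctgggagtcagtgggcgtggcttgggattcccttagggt

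The YY1 letters sat almost entirely after the start, with 9 of 10 matches there and the last of them beginning 38 bases downstream of the first transcribed base. Windows of 30 bases are shown for Ndufa3, Atp5j2 and Ndufs7, where the capitals begin at base 23, 24 and 25 of the transcript, to show the match in its place.
Ndufa3, chr7:3617384-3617413, plus strand: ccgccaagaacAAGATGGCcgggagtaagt
Atp5j2, chr5:145191500-145191529, minus strand: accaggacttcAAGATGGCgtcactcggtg
Ndufs7, chr10:80249462-80249491, plus strand: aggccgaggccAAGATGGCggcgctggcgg

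Complex I, the NADH dehydrogenase, had 42 measured members, with 32 higher in Nes-cKO, 10 lower, 0 called and a median log2 ratio of 0.070. Its 7 core subunits, which carry the flavin and the iron-sulphur clusters, had a median log2 ratio of 0.048, with 5 higher and 2 lower. Ndufv1, which binds NADH, stood at 70.9 FPKM in wildtype against 74.8 FPKM in Nes-cKO. Ndufs1, an iron-sulphur subunit, stood at 42.9 and 44.3 FPKM. Ndufv2, another iron-sulphur subunit, stood at 58.5 and 62.3 FPKM and was the highest of the core subunits by ratio.

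The 30 accessory subunits of complex I surround that core and are needed for its assembly and stability. Of these, 26 were higher and 4 lower, with a median log2 ratio of 0.087. Ndufc2 (mm9 chromosome 7, 104548513 to 104556310) had the smallest q of the 88 members, at 88.1 FPKM in wildtype against 107 FPKM in Nes-cKO. Its log2 ratio was 0.28, with p = 0.0226 and q = 0.199 in the authors' deposited table. This is also the largest ratio among members at 30 FPKM or more, 121% of wildtype. Ndufa1, encoded on chromosome X, stood at 102 and 118 FPKM (q = 0.476, authors' deposited table). Ndufab1, the mitochondrial acyl carrier protein, stood at 60.02 and 69.1 FPKM with q = 0.507. Ndufs4, whose loss in mice causes a Leigh-like encephalopathy, stood at 35.4 and 36.1 FPKM, a log2 ratio of 0.029.

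The accessory subunits differed more in level than between genotypes. Ndufa4, now assigned to complex IV by its protein, was the most abundant at 369 and 384 FPKM. Ndufa3 followed at 262 and 293 FPKM, and Ndufa11 was the least abundant at 17.1 and 19.1 FPKM. The 4 accessory subunits with a lower value in Nes-cKO were Ndufa5, Ndufa6, Ndufa7 and Ndufc1, of which Ndufa5 had the lowest log2 ratio at -0.057, from 113 to 109 FPKM.

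The assembly factors Ndufaf1, Ndufaf2, Ndufaf3 and Ndufaf4 help to build complex I and are not part of it. All 4 stood lower in Nes-cKO, by little, with log2 ratios from -0.065 to -0.027 and none called. Ndufaf2 stood at 28.3 and 27.0 FPKM and had the lowest ratio of the complex I genes. The division into subunits and other proteins was made after the values were seen. Of the 80 measured subunits 68 were higher in Nes-cKO, and of the 8 other proteins 1 was. Assembly factors of complexes I to V outside the symbol pattern did not share that direction: of 29 measured, 22 were higher, 7 lower and 0 called, with a median log2 ratio of 0.042.

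Complex II, succinate dehydrogenase, joins the citric acid cycle to the respiratory chain and is encoded wholly in the nucleus. Its 4 genes were each higher in Nes-cKO without being called. The flavoprotein gene Sdha (chromosome 13, 74459703 to 74487688) stood at 115 and 123 FPKM. The iron-sulphur subunit gene Sdhb stood at 89.5 and 100.4 FPKM, the highest ratio of the complex, with a log2 ratio of 0.17 and q = 0.654 in the authors' deposited table. The membrane anchor genes Sdhc and Sdhd stood at 47.8 and 49.1 FPKM and at 56.9 and 58.1 FPKM. The anchors thus had near-equal log2 ratios of 0.038 and 0.031.

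Complex III, the cytochrome bc1 complex, likewise had all 8 members higher and 0 called, with a median log2 ratio of 0.098 and a range from 0.033 to 0.16. The core protein genes Uqcrc1 and Uqcrc2 were expressed alike in wildtype, at 96.0 and 95.6 FPKM, and stood at 106.7 and 97.8 FPKM in Nes-cKO. The Rieske iron-sulphur protein gene Uqcrfs1 stood at 59.2 and 64.7 FPKM. The small subunits were more abundant, led by the hinge protein gene Uqcrh at 279 and 302 FPKM and by Uqcr11 at 257 and 271 FPKM. Uqcrq had the highest ratio, at 151 and 168 FPKM (q = 0.698, authors' deposited table). Uqcrc2 had the lowest ratio. Cyc1, which encodes cytochrome c1 of the same complex and escapes the symbol pattern, stood at 96.9 and 109.0 FPKM.

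**Figure D2:**
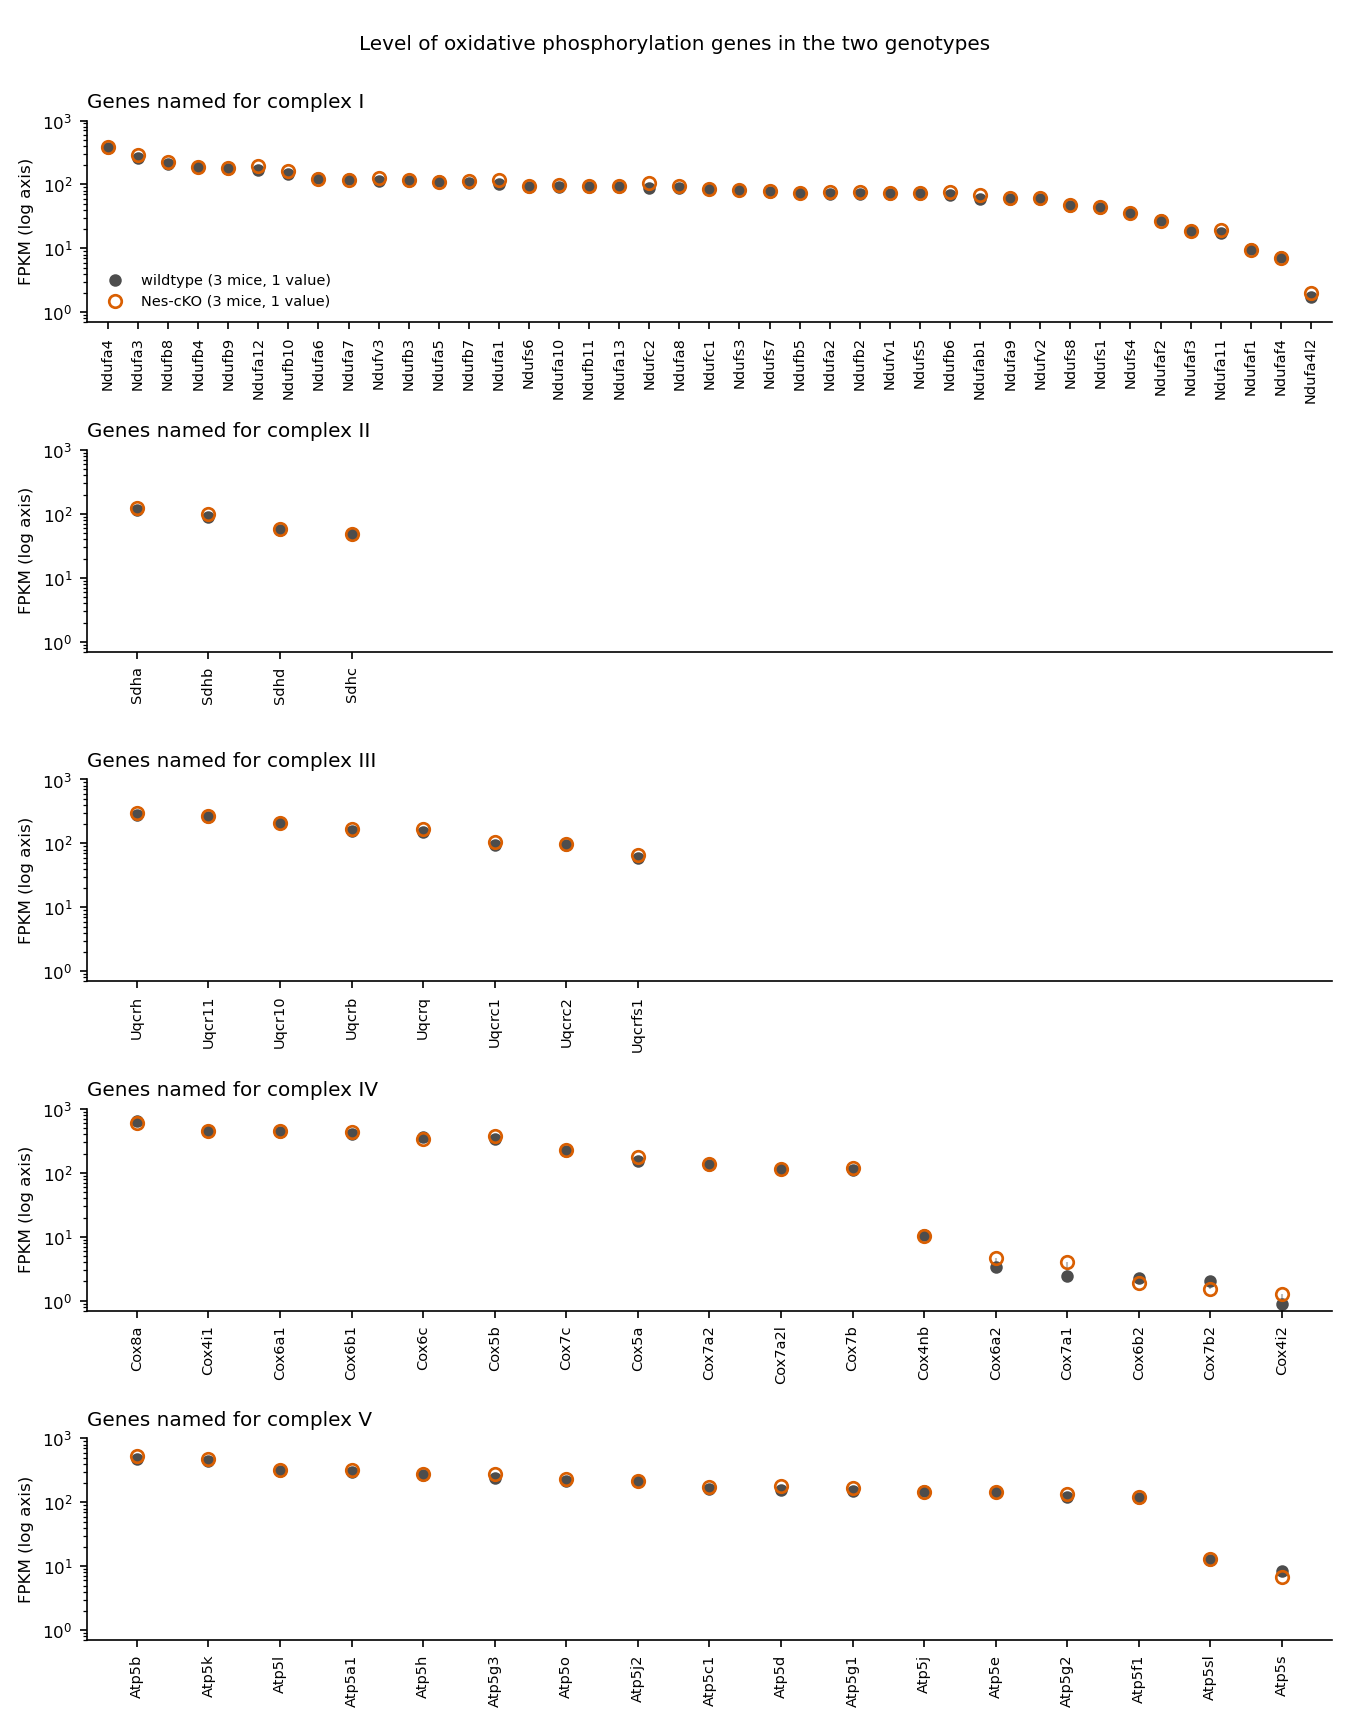
FPKM (log axis) of measured members, in 1 panel per complex and sorted by wildtype level. Filled points are wildtype and open points Nes-cKO, each the authors' pooled value over 3 mice. The points of a gene nearly coincide except for low genes such as Cox7a1, Cox7b2 and Cox4i2, and the spread between genes is far larger than that between genotypes.

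Complex IV, cytochrome c oxidase, had the most varied ratios, and the variation came from genes of low level. The 10 commonly expressed subunits lay between 113 and 638 FPKM in wildtype and had log2 ratios from -0.065 to 0.20, with a median of 0.054. Cox8a was the most abundant of all members, at 638 FPKM in wildtype against 610 FPKM in Nes-cKO. Cox4i1, which encodes the largest of the nuclear subunits, stood at 458 and 459 FPKM, the nearest to no difference among the subunits of complex IV. Cox5a and Cox5b had the highest ratios of the common subunits, at 153 and 175 FPKM and at 335 and 379 FPKM, with q = 0.494 and q = 0.592 in the authors' deposited table. Cox6c had the lowest ratio of the common subunits, at 360 and 344 FPKM.

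Several subunits of complex IV exist as isoforms from separate genes, one widespread and others typical of muscle, lung or testis. In hippocampus the widespread isoform made up nearly all of each pair, in both genotypes. Cox6a1 held 99.2% of the summed FPKM of Cox6a1 and Cox6a2 in wildtype and 99.0% in Nes-cKO. Cox4i1 held 99.8% of the Cox4 sum in wildtype and 99.7% in Nes-cKO. Cox6b1 held 99.4% and 99.6% of its sum. Cox7b held 98.2% and 98.7% of its sum. Cox7a1 held 0.968% of the sum of Cox7a1, Cox7a2 and Cox7a2l in wildtype and 1.58% in Nes-cKO. Cox7a2 held 52.8% and 53.7% of that sum. Cox7a2l, which encodes another protein, held 46.2% and 44.7%, so the Cox7a1 share is lowered by its presence.

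The minor isoforms had the largest ratios of the set in both directions, from levels at which little signal stands behind each value. Cox7a1, the heart and skeletal muscle isoform (mm9 chromosome 7, 30969190 to 30971049), stood at 2.44 and 4.05 FPKM. Its log2 ratio of 0.73 was the highest of the members, with p = 0.0286 and q = 0.235 in the authors' deposited table, and it was 0.55 with 1 FPKM added to both values. Cox6a2, another muscle isoform that parvalbumin neurons also express, stood at 3.40 and 4.63 FPKM, with q = 0.395. Its locus also holds Itgad and 4931431B13Rik. Cox4i2, an isoform of lung and of vascular mural cells, stood at 0.890 and 1.297 FPKM and so passed the level of 1 FPKM by its Nes-cKO value alone. The testis isoforms went the other way, with Cox7b2 at 2.05 and 1.53 FPKM, the lowest log2 ratio at -0.42, and Cox6b2 at 2.29 and 1.91 FPKM. None of these 5 was called. Cox8b, a muscle isoform, stood at 0.440 and 0.223 FPKM, below the level used here, and the testis isoform Cox8c was listed at 0 in both genotypes without a test.

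Markers of muscle, of parvalbumin neurons and of endothelium were measured in the same libraries. Of 6 muscle markers, 3 reached 1 FPKM in at least 1 genotype. These were Acta1 at 3.03 and 3.82 FPKM, Myh7 at 0.841 and 1.09 FPKM and Tnnt2 at 1.47 and 1.70 FPKM, with 0 called. The other markers had values under 1 FPKM: Mb stood at 0.251 and 0.162 FPKM and Myh6 at 0.142 and 0.130 FPKM. Ckm, the muscle creatine kinase gene, was listed at 0 in wildtype and at 0.039 FPKM in Nes-cKO. The 6 summed to 5.74 FPKM in wildtype against 6.93 FPKM in Nes-cKO. Pvalb, the parvalbumin gene, stood at 29.3 and 33.1 FPKM. The part of muscle or parvalbumin cells in the Cox7a1 and Cox6a2 values was not tested.

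**Figure D3:**
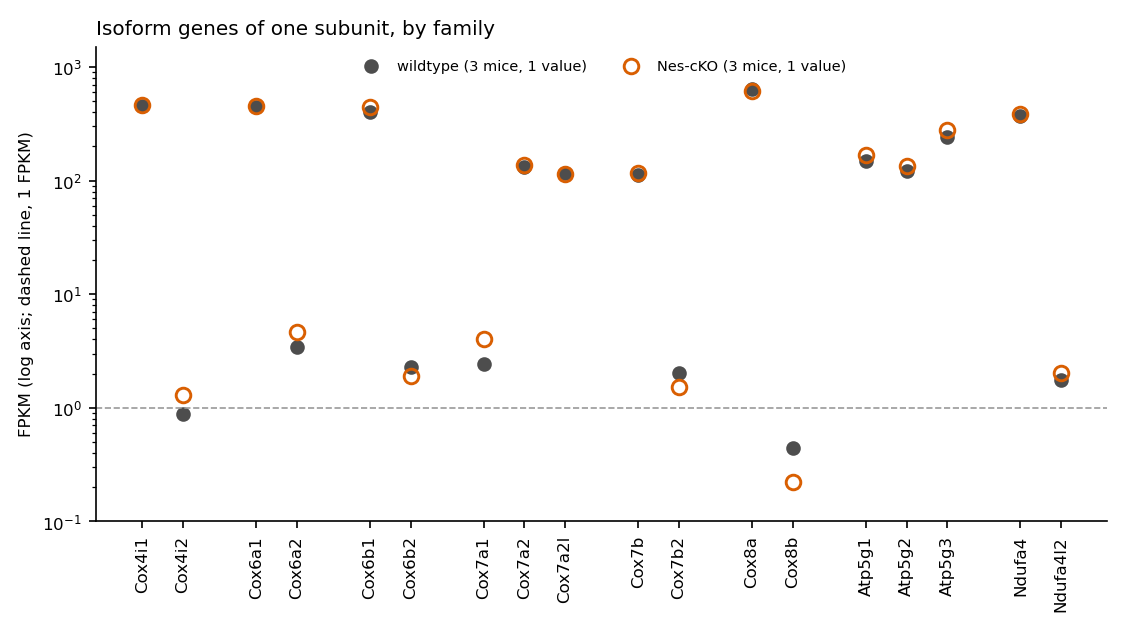
FPKM (log axis) of isoform genes of 1 subunit, grouped by family, with wildtype as filled and Nes-cKO as open points, each a pooled value over 3 mice. Cox8c, at 0 in both genotypes, is not drawn. The widespread isoforms lie above 100 FPKM and the minor isoforms of complex IV and Ndufa4l2 below 5 FPKM in both genotypes.

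A pair of genes named for complex IV encode other proteins. Cox7a2l, also known as SCAF1, joins complexes III and IV into supercomplexes, and stood at 116 and 115 FPKM. Cox4nb encodes a subunit of the endoplasmic reticulum membrane complex and is the neighbour of Cox4i1 on chromosome 8. It stood at 10.6 and 10.4 FPKM. Ndufa4l2, a paralog of Ndufa4 that hypoxia induces, stood at 1.75 and 2.02 FPKM, at a locus shared with Shmt2.

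Complex V, the ATP synthase, had 17 measured members, of which 14 were higher and 3 lower, with 0 called and a median log2 ratio of 0.082. In the F1 part, where ATP is made, the catalytic beta subunit gene Atp5b was the most abundant member of the complex at 473 and 536 FPKM, a log2 ratio of 0.18 with q = 0.591 (authors' deposited table). The alpha subunit gene Atp5a1 stood at 295 and 323 FPKM. Atp5d (mm9 chromosome 10, 79605060 to 79608563), which encodes the delta subunit of the central stalk, stood at 155 and 183 FPKM. Its log2 ratio of 0.24 was the highest of the complex, with p = 0.0425 and q = 0.305 in the authors' deposited table. The epsilon subunit gene Atp5e, of the same stalk, stood at 145 and 144 FPKM.

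The c ring, the rotor in the membrane, is built of a protein that Atp5g1, Atp5g2 and Atp5g3 each encode in the same mature form. All of them were higher, at 149 and 169 FPKM, at 122 and 135 FPKM and at 243 and 278 FPKM, with q-values from 0.502 to 0.738 in the authors' deposited table. Their sum was 513 FPKM in wildtype against 581 FPKM in Nes-cKO, and their shares of it hardly differed. Atp5g3 held 47.3% of the sum in wildtype and 47.8% in Nes-cKO. The 4 genes of the peripheral stalk had a median log2 ratio of 0.050, with Atp5o, the oligomycin sensitivity protein gene, at 214 and 231 FPKM and Atp5j, the coupling factor 6 gene, at 148 and 145 FPKM. The membrane subunit genes Atp5k, Atp5l and Atp5j2 stood at 445 and 478, at 310 and 322 and at 212 and 214 FPKM.

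Atp5s and Atp5sl carry ATP synthase symbols without being core subunits. Atp5s, which encodes coupling factor B, stood at 8.41 and 6.88 FPKM, 81.8% of wildtype, with p = 0.0534 and q = 0.354 in the authors' deposited table. It had the lowest ratio among members above 5 FPKM. Atp5sl, whose human counterpart is known to take part in complex I assembly, stood at 12.4 and 13.0 FPKM.

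**Figure D4:**
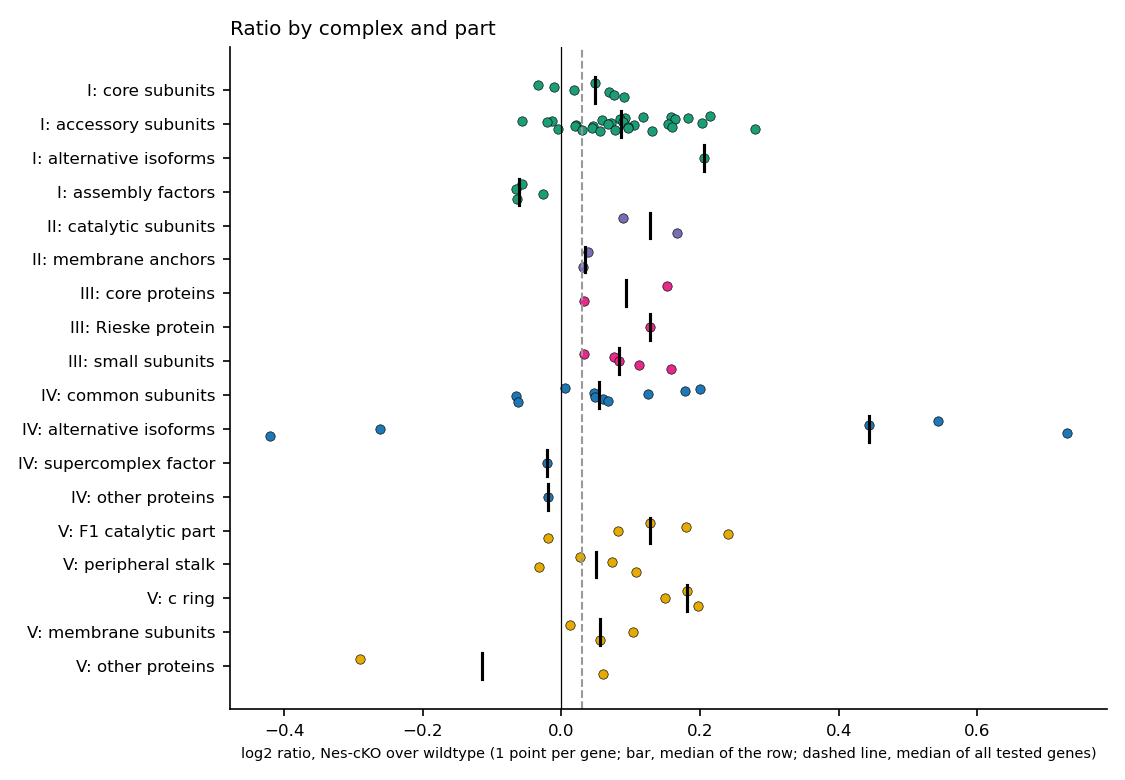
Log2 ratio of FPKM in Nes-cKO over wildtype for each of the 88 measured members (points), by complex and structural part (rows), with a black bar at the median of each row and a dashed line at the median of all tested genes, 0.030. Most parts sit just right of zero, the 4 complex I assembly factors just left of it, and the minor complex IV isoforms spread from -0.42 to 0.73.

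Genes of neighbouring mitochondrial functions also had small ratios, with medians that differed between lists. Over all tested genes at 1 FPKM or more, 57.7% were higher and the median log2 ratio was 0.030. Of 17 genes of the citric acid cycle and pyruvate dehydrogenase, 16 were higher, 1 was lower and 0 were called, with a median log2 ratio of 0.084. Citrate synthase, Cs, stood at 84.7 and 93.9 FPKM and malate dehydrogenase, Mdh2, at 189 and 217 FPKM. Of 76 mitochondrial ribosomal protein genes, 58 were higher, 18 lower and 0 called, with a median of 0.069. Of 79 measured cytosolic ribosomal protein genes, which are short and abundant like the members, 47 were higher, 32 lower and 0 called, with a median of 0.023. Of 18 genes of mitochondrial protein import, 11 were higher and 7 lower, with a median of 0.038. Of 14 carrier and channel genes of the mitochondrial membranes, 9 were higher and 5 lower, with a median of 0.056. In either list 0 were called.

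Regulators of mitochondrial gene expression were not called either. Of 20 measured, 12 were higher and 8 lower, with a median log2 ratio of 0.039. The coactivator gene Ppargc1a stood at 6.93 and 7.63 FPKM (q = 0.788, authors' deposited table), and Tfam, which packages and transcribes mitochondrial DNA, at 6.52 and 6.19 FPKM with q = 0.961. Of 15 measured glycolysis genes, 2 rose, 0 fell and 13 did not pass, with a median of 0.15, beside 7.1% called among all tested genes at 1 FPKM or more. The phosphofructokinase genes Pfkl and Pfkp rose from 56.7 to 81.4 FPKM and from 45.2 to 60.3 FPKM, with q = 0.00152 and q = 0.0141 in the authors' deposited table. No test of the difference between glycolysis and oxidative phosphorylation was run.

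The authors' splicing tables list 320 events with an inclusion change above 10 percentage points, and 0 of them lay in a member by symbol or synonym. Of the 12685 tested genes at 1 FPKM or more, 286 (2.25%) had a listed event, and 0 of 90 members is near that background. Events with smaller differences were not analysed here.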

How the data were processed

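Hippocampal RNA of 3 wildtype and 3 Nes-cKO mice was sequenced as strand-specific, polyadenylated libraries of paired 50 bp reads, as the labels' protocols state. CASAVA, Cufflinks, Cuffdiff and mm9 are named in the submitters' processing notes. The aligner is not given in the sources used here. Files deposited by the authors hold 1 FPKM value per gene and genotype, a test score that was not used, and p-values and q-values of their Cuffdiff test, per the file headers. Depth is unknown from these values, so no intervals were computed.

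Members were found by symbol. The log2 ratio was taken on the authors' FPKM, without a pseudocount, for genes with a test and at least 1 FPKM in either genotype, and calls used the authors' q below 0.05. No test of expression was run here. The members, lists and complexes were chosen with earlier results of these data known. Named are members past p of 0.05, the extremes and most abundant of each complex, isoform families and members under 1 FPKM, and all other names were picked with values in view. Some genes are not reported here. The fixed rule's Fisher test of junction reads was not needed, since no member was listed. Locus starts are written from base 1. Promoters are RefSeq's (GRCm38.p6), and lengths are medians over protein-coding transcripts of GENCODE M21. Summaries and motif search were run on simulated data with planted answers, which checks the calculation and not the results. The planted letters were none of the motifs searched here. Python 3.11.15, pandas 2.3.3, numpy 2.4.6, scipy 1.17.1 and matplotlib 3.10.9 were used.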

Additional observations from a re-analysis of the deposited data

How the results depend on the processing

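No member was called at a q of 0.10, with no filter on low values or at 5 FPKM or more. At an unadjusted p below 0.05 (authors' deposited table) there were 3. Centring on the median of all tested genes (0.030) lowered the median log2 ratio by over 1.5 times for the members (0.072 to 0.042) and for complexes I (0.070 to 0.040), II (0.063 to 0.033), IV (0.049 to 0.019) and V (0.082 to 0.052). The other 30 recomputed medians, sums and shares stayed within 1.5 times of their value, with the same direction (pseudocounts of 1 and 0.1, other filters, subunits only, centring of complex III and of the share of higher members, the sum without the 5 most abundant members). A pseudocount of 1 moved the log2 ratio of 3 of 88 members by over 0.1: Cox7a1 to 0.55, Cox4i2 to 0.28 and Cox7b2 to -0.27. No replicate could be left out. No paired analysis was possible because the table holds 1 value per genotype. Depth and the spread between mice limit what can be said of the low isoforms, and neither is known here.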
